A study of Mus musculus with 8 samples.

Results

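Expression of platelet and megakaryocyte genes was examined in preparations of lung neutrophils from wild type (WT) mice with and without pneumonia. The genes were a list of 9, the platelet chemokines Pf4 and Ppbp, the surface receptor genes Itga2b, Gp9, Gp1bb, Gp6, Clec1b and Treml1, and the tubulin gene Tubb1. Each gene was represented by the row of the deposited value table whose RefSeq identifier maps to its symbol, and no gene had more than 1 such row. A row was found for 8 of the 9 genes, among 24625 rows in all, of which 19915 carried a symbol. No row was matched to Gp6, the collagen receptor glycoprotein VI, and its expression was not analysed here. RNA came from 8 samples, each on its own Affymetrix Mouse Gene 1.1 ST array. In 4 of them WT mice had received Streptococcus pneumoniae (SP) through the trachea into the left lung, and in the other 4 WT mice had received an equal volume of phosphate-buffered saline (PBS), in both cases 2.3 µl per g of body weight. The labels put the mice at 6 to 12 weeks of age, lungs were taken after 24 h, and cells carrying Ly6G, a surface protein of mouse neutrophils, were collected on magnetic beads. Per the study's methods, purity was judged in the pneumonia samples, so it was not given for PBS lungs. The methods describe the few other cells as usually resembling alveolar macrophages and rarely eosinophils. They also report high Ly6G messenger RNA in all samples. The study's figure legends describe each sample as coming from a mouse, and the p-values measure the spread between these samples.

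Platelets are cell fragments without a nucleus that megakaryocytes shed, in the bone marrow and also in the lung, and they carry messenger RNA from the parent cell. Their receptors bind von Willebrand factor, fibrinogen, collagen and podoplanin at an injured vessel wall, and their alpha granules release chemokines, growth factors and clotting proteins. Platelets also bind neutrophils, through P-selectin and its ligand on the leukocyte, so that a bead preparation of neutrophils can hold platelets attached to the cells. Several of the genes are not exclusive to the lineage. Pf4 transcripts are known in some tissue macrophages, and Clec1b has been described on some myeloid cells. In a bulk sample such as these, fewer cells of a type and less RNA per cell cannot be told apart.

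Across all rows, limma called 21.5% higher and 22.6% lower in SP at an adjusted p of 0.05, and the shares that also differed 2-fold were 6.37% higher and 11.3% lower. The median row was 0.10 log2 units higher in SP as deposited, 0.38 higher when each array was centred on its own median, and 0.02 higher after another round of quantile normalization. Of the rows called at 2-fold, 63.9%, 44.4% and 53.9% were lower in SP under these scalings. At the adjusted p alone, 57.7% of rows were higher and 16.4% lower with arrays centred, and 19.6% higher and 22% lower after another quantile normalization, so that each count below is tied to its scaling. The rows of 1080 olfactory receptor genes, which are silent in most tissues, served as a gauge of background. Their 95th percentile was 5.31 to 5.49 on the log2 scale of the PBS arrays and 5.66 to 6.04 on the SP arrays. As deposited, background was thus higher in SP, and most so in SP replicate 3, and the median olfactory receptor row was itself 0.20 higher in SP. All 10 neutrophil markers lay above the 95th percentile on every array. Of the 8 platelet genes measured, Pf4, Ppbp, Itga2b, Gp1bb and Tubb1 did so on all 8 arrays and Clec1b on 7, whereas Gp9 did so on 1 and Treml1 on none. Of further genes that define the lineage, Gata1, the erythroid and megakaryocyte transcription factor, was above it on 0 arrays, Gp5 and Mpig6b on 1 and Gp1ba on 2. The platelet label therefore rested on some of its defining genes and not on others, and the genes are described singly.

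The promoters of 4 of the genes are shown because these genes carry the results below. Ppbp and Pf4 are neighbours on chromosome 5, in the order Cxcl5, Ppbp, Pf4, Cxcl3 and Cxcl15 in the RefSeq annotation of GRCm38.p6, and only the first of the pair passed the test below. Ppbp, Itga2b and Tubb1 shared their highest PBS array. Each stretch is the 250 bases before the RefSeq gene start in GRCm38.p6, at chr5:90768268-90768517 on the plus strand for Ppbp, chr5:90772185-90772434 on the plus strand for Pf4, chr11:102469884-102470133 on the minus strand for Itga2b and chr2:174450345-174450594 on the plus strand for Tubb1, read in the direction of the gene. Capitals mark matches to the ETS-family core word GGAAG and its reverse complement CTTCC.
Ppbp: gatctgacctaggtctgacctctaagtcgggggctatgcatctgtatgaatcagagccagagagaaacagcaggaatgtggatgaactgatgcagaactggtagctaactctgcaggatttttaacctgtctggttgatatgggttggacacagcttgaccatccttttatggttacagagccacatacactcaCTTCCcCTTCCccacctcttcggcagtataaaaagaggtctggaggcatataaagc
Pf4: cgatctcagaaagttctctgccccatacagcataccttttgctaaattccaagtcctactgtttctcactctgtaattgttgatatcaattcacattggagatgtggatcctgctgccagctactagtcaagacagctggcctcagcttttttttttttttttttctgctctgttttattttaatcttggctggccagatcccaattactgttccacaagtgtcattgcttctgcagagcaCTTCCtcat
Itga2b: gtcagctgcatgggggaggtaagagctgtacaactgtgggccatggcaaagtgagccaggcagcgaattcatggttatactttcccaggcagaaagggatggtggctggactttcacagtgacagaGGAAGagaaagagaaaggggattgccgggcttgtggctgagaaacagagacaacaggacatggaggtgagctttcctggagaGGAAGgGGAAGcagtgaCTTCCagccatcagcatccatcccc
Tubb1: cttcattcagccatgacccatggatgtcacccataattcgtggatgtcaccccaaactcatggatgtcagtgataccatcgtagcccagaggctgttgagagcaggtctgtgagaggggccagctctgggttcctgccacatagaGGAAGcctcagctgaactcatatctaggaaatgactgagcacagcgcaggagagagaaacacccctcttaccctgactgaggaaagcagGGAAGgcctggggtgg
The core word occurred 2 times before Ppbp, 1 time before Pf4, 4 times before Itga2b and 2 times before Tubb1. A word this short was also present in 64.1% of the 32851 promoter windows in the RefSeq table, so its presence does not set these genes apart. Words bound by GATA factors (AGATAA or AGATAG or either with T as its first letter, searched on both strands) were found in none of these 4 windows, against 26.5% of all windows. Among the other members, Gp1bb, Gp6 and Clec1b held 1 GATA word each, and Gp9 and Treml1 held none. A match is a description of letters and not a bound site.

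Ppbp, which encodes pro-platelet basic protein, the precursor of the neutrophil-attracting chemokine CXCL7, was the single member that fell at 2-fold. Its log2 expression was 8.98, 10.07, 8.36 and 8.41 in PBS replicates 1 to 4 and 6.19, 6.35, 6.94 and 7.84 in SP replicates 1 to 4. The groups did not overlap, as for 49.0% of all rows, with PBS replicate 2 highest and SP replicate 4 nearest to the PBS arrays. The means were 8.95 ± 0.79 in PBS and 6.83 ± 0.75 in SP (SD, n = 4 each). SP was lower by 4.37-fold, a log2 difference of -2.13 (SE 0.47, 95% interval -3.20 to -1.06, limma adjusted p = 0.00697). Leaving out each array in turn gave log2 differences from -2.46 to -1.76, and every alternative that was run kept the call, with adjusted p-values by limma or the methods' own test between 0.0014 and 0.0275. Without both arrays that stood apart most often, PBS replicate 2 and SP replicate 3, the log2 difference was -1.79 (limma adjusted p = 0.0172).

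Pf4, platelet factor 4 or CXCL4, is the other abundant chemokine of alpha granules and did not pass the test. Its log2 values were 8.36, 8.03, 7.70 and 7.87 in PBS and 7.59, 7.46, 7.15 and 9.02 in SP. SP replicate 4 was the highest of the 8 arrays, while the other SP arrays lay below every PBS array. The log2 difference was -0.18 (SE 0.38, 95% interval -1.05 to 0.68, limma adjusted p = 0.69). Without SP replicate 4 it was -0.59 (limma adjusted p = 0.0329), and without SP replicate 3 it was 0.04. SP replicate 4 was the highest SP array for 23.7% of all rows, and for 5 of 9 monocyte and macrophage markers, 3 of 7 alveolar macrophage markers, 7 of 8 endothelial markers and all 5 epithelial markers. Its summed level of the monocyte and macrophage markers, 13.96 on the log2 scale, lay within the 13.43 to 13.99 of the other SP arrays. That of the endothelial markers, 13.21, was above the other SP arrays, at 12.38 to 12.98, as was that of the epithelial markers, 14.51 against 13.96 to 14.25. The monocyte and macrophage, endothelial and epithelial markers were above the silent rows on every array, and the part of these cells in the Pf4 values was not tested.

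The neighbouring chemokine genes did not keep the same ratio in both groups. Within each array the log2 value of Ppbp minus that of Pf4 was 0.54 to 2.04 in PBS and -1.41 to -0.21 in SP, a change of -1.94. The sizes depend on the probes, so that only the change between groups is read here, and the pair was set against each other after the values were seen. Of the other genes of this chemokine cluster, Cxcl5 rose by 2.11 (limma adjusted p = 0.000199) and Cxcl3 by 3.54 (limma adjusted p = 0.00527) on the log2 scale, and Cxcl15, a chemokine of lung epithelium, fell by 1.69 (limma adjusted p = 0.00577). Expression of Cxcr2, the receptor for CXCL7 on neutrophils, was 12.97 to 13.26 in PBS and 12.76 to 12.97 in SP, a log2 difference of -0.24 (limma adjusted p = 0.0562). After another quantile normalization it was -0.40 and passed (limma adjusted p = 0.00173), and with arrays centred it was 0.037.

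**Figure D1:**
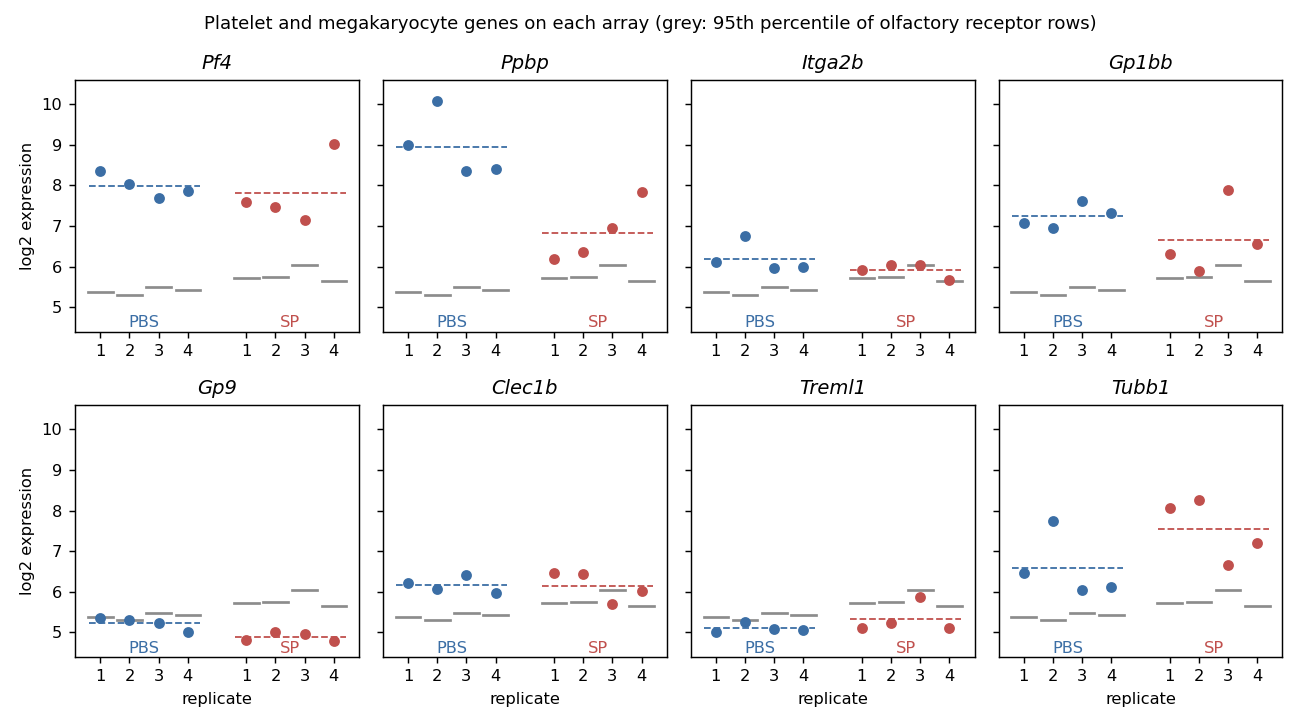
Log2 expression (vertical axis) of the 8 measured genes on each array, by replicate number, for PBS (blue) and SP (red). Dashed lines are group means and grey bars the 95th percentile of olfactory receptor rows on that array; Ppbp was lower on each SP array than on any PBS array, while Gp9 and Treml1 lay at or near the grey bars or below them.

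Of the receptor genes, Itga2b encodes integrin alpha IIb, which pairs with the Itgb3 product as the fibrinogen receptor. Its log2 values were 6.11, 6.74, 5.95 and 5.98 in PBS and 5.92, 6.03, 6.04 and 5.68 in SP. The groups overlapped and PBS replicate 2 stood highest. Itga2b cleared the 95th percentile of the olfactory receptor rows only narrowly on 2 arrays. It was 6.044 against 6.036 on SP replicate 3, and 5.68 against 5.66 on SP replicate 4. The log2 difference of -0.28 did not pass the test (SE 0.18, 95% interval -0.70 to 0.14, limma adjusted p = 0.227), and it was 0.00 with arrays centred and 0.06 after another quantile normalization. Itgb3, by contrast, rose by 2.02 on the log2 scale (SE 0.22, limma adjusted p = 0.000213), from 7.14 to 7.59 in PBS to 8.98 to 9.85 in SP. The integrin beta 3 chain is not restricted to platelets and also pairs with integrin alpha V on other cells.

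Gp1bb, Gp9, Gp1ba and Gp5 encode the subunits of the von Willebrand factor receptor. Gp1bb was 7.07, 6.95, 7.62 and 7.32 in PBS and 6.30, 5.89, 7.87 and 6.56 in SP. SP replicate 3 exceeded every PBS array and the other SP arrays lay below all of them. The log2 difference was -0.58 (SE 0.39, 95% interval -1.47 to 0.31, limma adjusted p = 0.235), and without SP replicate 3 it was -0.99 (limma adjusted p = 0.00714). Gp1bb overlaps Septin5 in the annotation, Septin5 had no row, and whether the probes separate them was not tested.

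Gp9 was 5.36, 5.32, 5.23 and 5.0 in PBS and 4.82, 5.02, 4.95 and 4.79 in SP. It passed the adjusted p with a small difference, -0.33 on the log2 scale or 1.26-fold lower in SP (SE 0.10, 95% interval -0.56 to -0.10, limma adjusted p = 0.0296), and the groups overlapped. All 4 SP values and 3 of the 4 PBS values lay under the 95th percentile of the olfactory receptor rows of the same array, and the call was lost with arrays centred (-0.05, limma adjusted p = 0.703). Gp1ba, at 5.33 to 5.46 in PBS and 5.50 to 6.16 in SP, and Gp5, at 4.99 to 6.07 in PBS and 4.84 to 5.23 in SP, did not pass (log2 differences 0.28 and -0.32, limma adjusted p = 0.155 and 0.264). The 4 subunits thus gave 1 call, a fall, beside 22.6% of all rows called lower. With arrays centred they also gave 1, but a rise, of Gp1ba (0.56, limma adjusted p = 0.0149), beside 57.7% of all rows called higher.

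Clec1b encodes CLEC-2, the platelet receptor for podoplanin. Its log2 values were 6.22, 6.07, 6.41 and 5.96 in PBS and 6.47, 6.44, 5.69 and 6.01 in SP. The highest and the lowest array were both SP arrays, replicates 1 and 3. The log2 difference was -0.01 (SE 0.19, 95% interval -0.44 to 0.41, limma adjusted p = 0.952), an interval that reaches to both sides of 0. Clec1b overlaps Clec12b in the annotation, and whether the probes separate them was not tested. Unlike Septin5, Clec12b had a row of its own, with a log2 difference of 0.75 (limma adjusted p = 0.155). Pdpn, the gene of podoplanin, was 9.35 to 10.10 in PBS and 9.25 to 10.72 in SP and did not pass (log2 difference 0.44, limma adjusted p = 0.256), although it did with arrays centred (0.72, limma adjusted p = 0.0336) and with array weights (0.75, limma adjusted p = 0.00991).

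Treml1 encodes TREM-like transcript 1, a membrane protein of alpha granules that reaches the platelet surface on activation. It was 5.0, 5.26, 5.09 and 5.07 in PBS and 5.12, 5.24, 5.86 and 5.11 in SP. SP replicate 3 was highest, on the array whose silent rows were also highest, and no value exceeded the 95th percentile of those rows. The log2 difference of 0.23 did not pass (SE 0.17, 95% interval -0.16 to 0.62, limma adjusted p = 0.274), whereas with arrays centred it was 0.51 (limma adjusted p = 0.0309).

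Tubb1 encodes the beta 1 tubulin that forms the microtubule ring of platelets and is needed for their release from megakaryocytes. Its log2 values were 6.47, 7.75, 6.04 and 6.12 in PBS and 8.06, 8.25, 6.67 and 7.20 in SP. PBS replicate 2 lay above SP replicates 3 and 4, and the other PBS arrays lay below all SP arrays. The log2 difference of 0.95 did not pass (SE 0.46, 95% interval -0.11 to 2.01, limma adjusted p = 0.121). Without PBS replicate 2 it was 1.34 (limma adjusted p = 0.0276), and without both PBS replicate 2 and SP replicate 3 it was 1.63 (limma adjusted p = 0.00374). It also passed with arrays centred (1.23, limma adjusted p = 0.0237), after another quantile normalization (1.29, limma adjusted p = 0.0335) and with array weights (1.60, limma adjusted p = 0.0025). Tubb1 thus lay on the opposite side of 0 from Ppbp in each of these fits. Tuba8, an alpha tubulin gene of the cytoskeleton list below, rose by 4.18 on the log2 scale (SE 0.18, limma adjusted p = 3.71e-06), from 5.84 to 6.21 in PBS to 9.79 to 10.58 in SP. Tuba4a, another alpha tubulin gene of that list, did not pass (-0.14, limma adjusted p = 0.525). Which cells the Tuba8 signal came from was not tested.

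Among the 8 measured genes, 0 were called higher, beside 21.5% of all rows, 2 were called lower, Ppbp and Gp9, beside 22.6%, and 6 did not pass. With arrays centred 2 were called higher, Treml1 and Tubb1, beside 57.7% of all rows, and 1 lower, Ppbp, beside 16.4%. Treml1 exceeded the 95th percentile of the silent rows on 0 arrays. At 2-fold as deposited the counts were 0 higher, beside 6.37% of all rows, and 1 lower, beside 11.3%. The median log2 difference was -0.23, beside 0.10 over all rows. The differences ran from -2.13 for Ppbp to 0.95 for Tubb1, and 6 of the 8 were below 0 as deposited, against 3 of the 8 with arrays centred. The log2 of their summed level was 9.96 to 10.91 in PBS and 9.66 to 10.19 in SP.

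**Figure D2:**
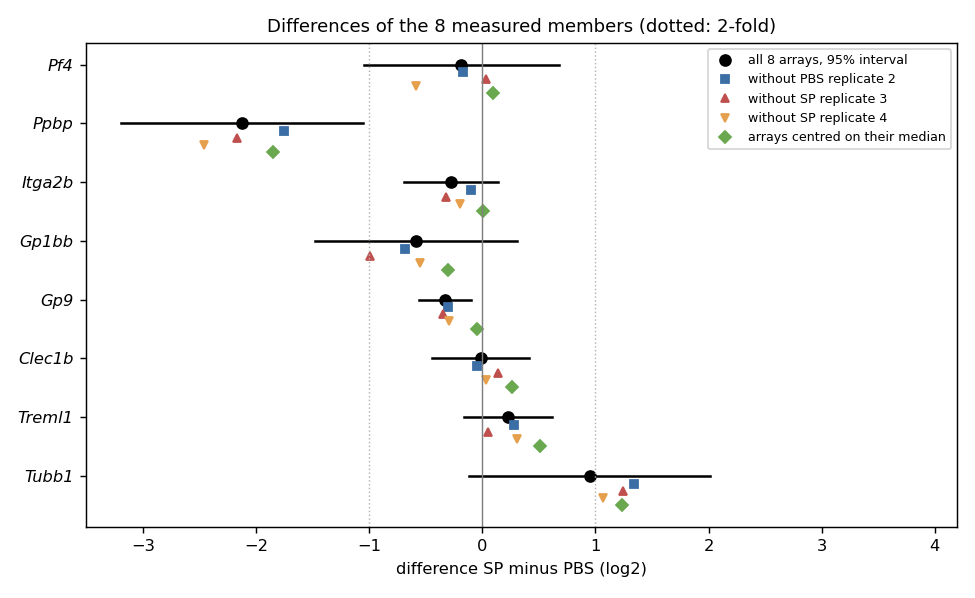
Difference in log2 expression, SP minus PBS (horizontal axis), for the 8 measured genes, with the 95% interval over all 8 arrays (black) and the difference without PBS replicate 2, without SP replicate 3, without SP replicate 4 or with arrays centred (coloured marks). Only the intervals of Ppbp and Gp9 lie to one side of 0, and the coloured marks of Gp9 reach -0.05 with arrays centred.

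Within the PBS group, PBS replicate 2 carried the highest value of Ppbp, Itga2b, Tubb1 and Treml1, 4 of the 8 genes, against 31.9% of all rows. It exceeded the mean of the other PBS arrays by 1.48 for Ppbp, 1.54 for Tubb1 and 0.73 for Itga2b on the log2 scale, beyond the range of -0.65 to 0.59 that held the 5th to 95th percentile of all rows. Among further platelet genes the excess was 1.42 for Alox12, the platelet 12-lipoxygenase, and 0.99 for Gp5. Pf4 did not share it, at 0.05, nor did Gp1bb, at -0.39, and the granule genes Selp and Mmrn1 lay lower by -1.68 and -1.45. PBS replicate 2 was at the same time the highest PBS array for 8 of 8 endothelial and 5 of 5 epithelial markers and for 0 of 9 monocyte and macrophage markers. The log2 of the summed endothelial level was 14.62 on it and 13.70 to 14.28 on the other PBS arrays. What part these cells had in the values of this array was not tested.

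**Figure D3:**
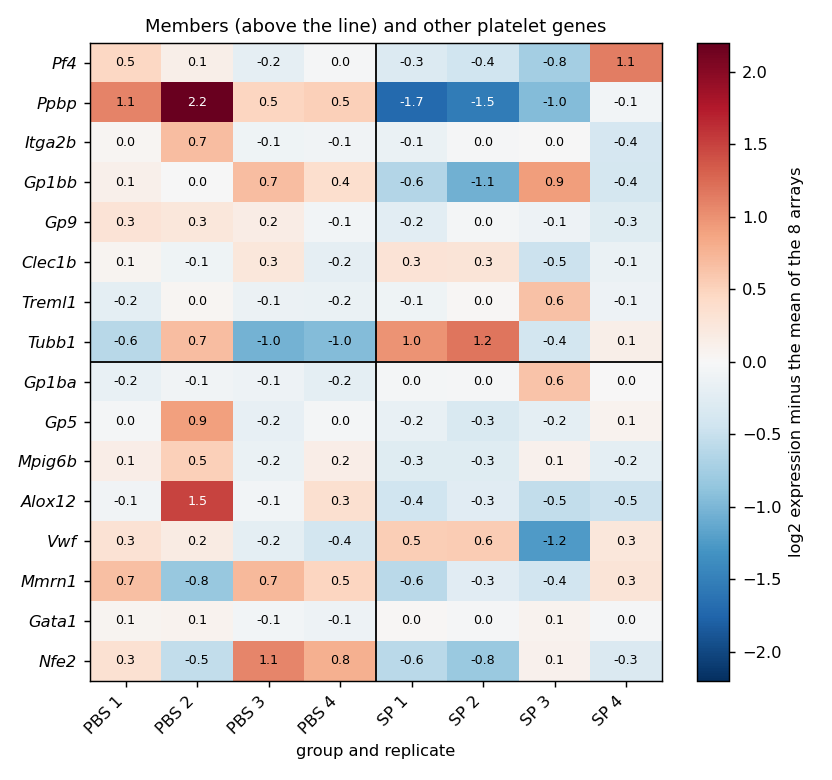
Log2 expression minus the mean of the 8 arrays of that gene (colour and printed value) for the 8 measured genes, above the line, and for 8 other genes of the lineage, by array. Among the PBS arrays, replicate 2 stands out for Ppbp, Tubb1, Itga2b, Gp5 and Alox12 and not for Pf4 or Gp1bb; for Tubb1 SP replicates 1 and 2 are higher still, and SP replicate 4 stands out for Pf4.

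The wider gene set of platelets and megakaryocytes was described from 6 lists ordered by role. Together 114 of 117 listed genes had a row, of which 24 were called higher, 33 lower and 57 not, with a median difference of -0.07 on the log2 scale. These shares, 21.1% and 28.9%, stand beside 21.5% and 22.6% of all rows. With arrays centred the split turned to 43 higher (37.7%) and 21 lower (18.4%), beside 57.7% and 16.4% of all rows. The listed genes were thus called higher less often than all rows under that scaling. After another quantile normalization the split was 20 (17.5%) and 36 (31.6%), beside 19.6% and 22% of all rows. Of 22 further receptor genes, 3 rose (13.6%), 4 fell (18.2%) and 15 did not pass as deposited, beside 21.5% and 22.6% of all rows. The largest changes at 2-fold were Itgb3, Ptgir, the prostacyclin receptor (1.44, limma adjusted p = 0.00626), and Cd36, a thrombospondin and lipid receptor shared with macrophages and endothelium (-1.84, limma adjusted p = 0.000865). P2ry12, the ADP receptor (0.87), Selp, the gene of P-selectin (1.02), and Mpig6b, an inhibitory receptor (-0.33), did not pass (limma adjusted p = 0.0941, 0.092 and 0.104). With arrays centred P2ry12 (1.15, limma adjusted p = 0.0229) and Selp (1.30, limma adjusted p = 0.0233) passed, and Mpig6b passed after another quantile normalization (-0.38, limma adjusted p = 0.0378) and with array weights (-0.34, limma adjusted p = 0.0266). F2rl3, a thrombin receptor, had no row.

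Of 24 genes of granule cargo and mediators, 4 rose (16.7%), 9 fell (37.5%) and 11 did not pass, beside 21.5% and 22.6% of all rows. Their median difference was -0.52. With arrays centred 7 rose (29.2%) and 5 fell (20.8%), beside 57.7% and 16.4% of all rows. After another quantile normalization 3 rose (12.5%) and 8 fell (33.3%), beside 19.6% and 22% of all rows. The single genes that follow are as deposited unless another fit is named. Tgfb1, a growth factor of many leukocytes, rose by 1.42 (limma adjusted p = 3.87e-05) and F13a1, the coagulation factor XIII A chain that macrophages also make, by 1.42 (limma adjusted p = 0.00777). Clu, the chaperone clusterin (-1.19, limma adjusted p = 0.0162), Pdgfa, a platelet-derived growth factor chain (-1.04, limma adjusted p = 0.0035), and Slc6a4, the serotonin transporter (-1.04, limma adjusted p = 0.000735), fell. Slc6a4, at 5.07 to 5.47 in SP, lay under the 95th percentile of the silent rows on every SP array, so the size of its fall is limited by background. The adhesive proteins Vwf (0.05), Thbs1 (0.47) and Mmrn1 (-0.50) did not pass (limma adjusted p = 0.919, 0.0624 and 0.263). Thbs1 passed with arrays centred (0.75, limma adjusted p = 0.0094) and narrowly with the robust prior (limma adjusted p = 0.0473), and Mmrn1 passed without PBS replicate 2 (-0.86, limma adjusted p = 0.0139) and with array weights (-0.81, limma adjusted p = 0.0254).

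Of 24 signalling genes, 6 rose (25.0%), 6 fell (25.0%) and 12 did not pass, beside 21.5% and 22.6% of all rows, with a median of 0.07. Vav1, an exchange factor of all blood lineages, rose by 1.65 (limma adjusted p = 0.00106). Pde5a, the cyclic GMP phosphodiesterase (-2.70, limma adjusted p = 0.000428), Rasgrp2, the exchange factor that activates Rap1 (-1.90, limma adjusted p = 2.88e-05), and Rgs18, a regulator of G protein signalling (-1.81, limma adjusted p = 0.0155), fell. Of 15 cytoskeleton genes, 3 rose, 6 fell and 6 did not pass, beside 21.5% and 22.6% of all rows, with a median of -0.34. With arrays centred 3 of the 15 rose and 3 fell, beside 57.7% and 16.4% of all rows. After another quantile normalization 3 rose and 9 fell, beside 19.6% and 22% of all rows, so the number of falls depended on the scaling. The single genes that follow are as deposited. Beside Tuba8, Pstpip2 rose by 1.22 (limma adjusted p = 0.0246), a call that was lost by the methods' test and without SP replicate 1 or 2, and the tropomyosin gene Tpm1 (-1.47, limma adjusted p = 0.0013) and Mylk, the myosin light chain kinase (-1.13, limma adjusted p = 0.00873), fell.

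Of 17 megakaryocyte transcription factor genes, 5 rose (29.4%), 8 fell (47.1%) and 4 did not pass, beside 21.5% and 22.6% of all rows. Their median was -0.57. With arrays centred 7 rose and 7 fell (41.2% each), beside 57.7% and 16.4% of all rows. After another quantile normalization 5 rose (29.4%) and 6 fell (35.3%), beside 19.6% and 22% of all rows. As deposited, 3 were higher and 7 lower at 2-fold, beside 6.37% and 11.3% of all rows. Lyl1 (1.72, limma adjusted p = 0.00213), Mafg, a small partner of NF-E2 (1.18, limma adjusted p = 0.000302), and the repressor gene Gfi1b (1.09, limma adjusted p = 0.000282) rose. Meis1 (-2.08, limma adjusted p = 0.00147), Mrtfa, a coactivator of serum response factor (-1.35, limma adjusted p = 0.000657), and Ldb1, an adaptor of GATA complexes (-1.28, limma adjusted p = 0.000586), fell, as did Zfpm1, the partner of GATA1 (-0.57, limma adjusted p = 0.0473), whose call was lost by the methods' test, with arrays centred, after another quantile normalization (-0.17, limma adjusted p = 0.406) and without any of 6 single arrays (limma adjusted p = 0.0604 to 0.113). Nfe2 (-0.82), Fli1 (0.15) and Gata1 (0.02) did not pass (limma adjusted p = 0.0844, 0.609 and 0.828). Nfe2 passed without PBS replicate 2 (-1.14, limma adjusted p = 0.00996) and with array weights (-1.23, limma adjusted p = 0.00333), and Gata1, at background on every array, with arrays centred (0.30, limma adjusted p = 0.0162).

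Of 12 genes for partners and ligands of platelets on other cells, 3 rose (25.0%), 0 fell and 9 did not pass at the adjusted p. These counts stand beside 21.5% and 22.6% of all rows as deposited. With arrays centred 8 rose (66.7%) and 0 fell, beside 57.7% and 16.4% of all rows. After another quantile normalization 1 rose (8.33%) and 2 fell (16.7%), beside 19.6% and 22% of all rows. Fgg, 1 of the 3 genes that rose as deposited, exceeded the 95th percentile of the silent rows on 0 arrays. The same held for Fga, Fgb, Thpo and Cd40lg. Cd40, the receptor for platelet CD40 ligand, rose by 2.65 (limma adjusted p = 0.000258). Selplg, the ligand of P-selectin (-0.23), and Trem1, a neutrophil receptor with a ligand on platelets (0.00), did not pass (limma adjusted p = 0.184 and 0.993), and Selplg fell after another quantile normalization (-0.46, limma adjusted p = 0.00883).

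**Figure D4:**
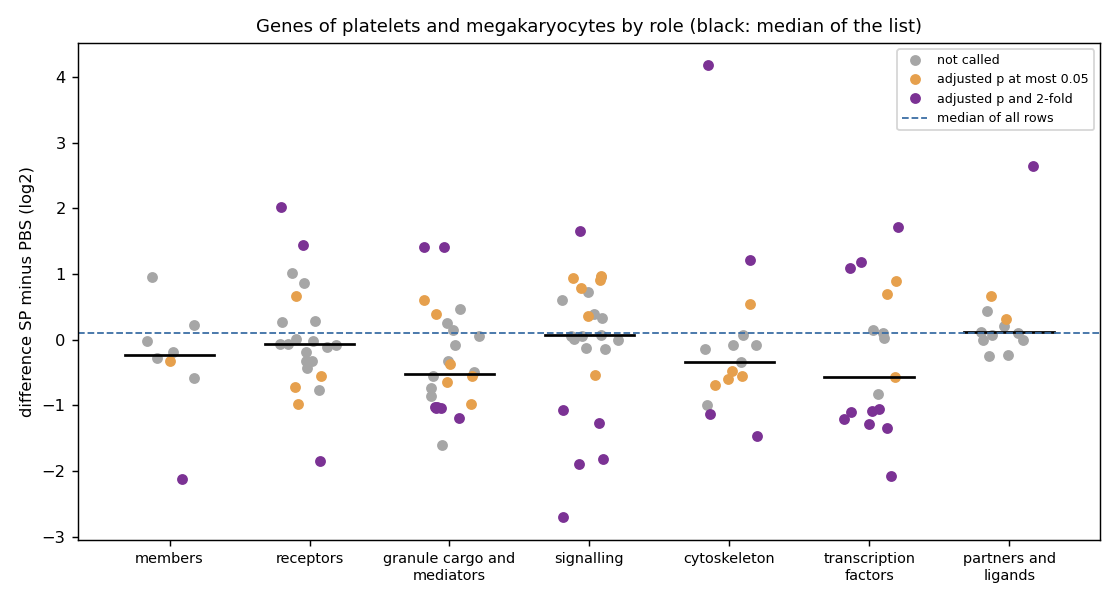
Difference in log2 expression, SP minus PBS (vertical axis), of each gene with a row in the member set and in 6 lists of platelet and megakaryocyte genes (horizontal axis; 1 point per gene). Grey points were not called, orange points passed the adjusted p and purple points also 2-fold; genes of each list lie on both sides of the median of all rows at 0.10.

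Markers of other cells were counted in the same way, beside 21.5% of all rows called higher and 22.6% called lower as deposited. Of 8 endothelial markers 7 fell, with a summed level of 13.70 to 14.62 in PBS and 12.38 to 13.21 in SP on the log2 scale, and all 5 epithelial markers fell, from 14.90 to 15.19 to 13.96 to 14.51. Of 7 erythroid markers 2 fell, the globin genes Hba-a2 (-3.54, limma adjusted p = 0.00103) and Hbb-bs (-3.47, limma adjusted p = 0.00214), with sums of 10.95 to 13.36 in PBS and 8.32 to 9.18 in SP. Of 10 neutrophil markers 3 fell and 0 rose, with sums of 15.98 to 16.18 in PBS and 15.39 to 16.22 in SP, whereas with arrays centred 0 fell and after another quantile normalization 7 did. Of 9 monocyte and macrophage markers 4 rose and 1, Mrc1, fell, with sums of 12.29 to 13.23 in PBS and 13.43 to 13.99 in SP. Of 7 alveolar macrophage markers 2 rose and 3 fell, with sums of 12.42 to 13.14 and 12.66 to 13.03, and Marco was above the silent rows on 1 array. Of 8 mast cell and basophil markers 1 rose, Tpsb2, and 1 fell, Kit. Of 7 progenitor markers 2 rose, Mpo and Elane, and 2 fell, Kit and Meis1. Tpsb2, Mpo and Elane exceeded the 95th percentile of the silent rows on 0 arrays, and that background was itself higher in SP. All endothelial, epithelial and neutrophil markers lay above the silent rows on every array. The part of these cells in the fall of Ppbp and in the differences of the other platelet genes was not tested.

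The 5 rows most like Pf4 and Ppbp over the 8 arrays, by the mean absolute difference of row-centred log2 values, held no gene of the platelet lists. For Pf4 they were Fgfr1 (0.09), Gria3 (0.10), Samd5, Lmcd1 and Ednra (0.13), among 8940 rows with a range at least 0.5 times that of Pf4. For Ppbp they were Gdpd2 (0.26), Fibin, Porcn, Ttll6 and Cgn (0.31), among 3326 rows. Over all 8 members, 0 of the 40 nearest rows were on a platelet or megakaryocyte list, and 0 were on a list of another cell. The platelet and megakaryocyte lists hold 114 of the 24625 rows. A count of 0 was therefore likely in any case, and no conclusion is drawn from it. The likeness is a description over 8 arrays in 2 groups, and part of it is the difference between the groups.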

How the data were processed

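RNA of 8 lung neutrophil samples (4 PBS, 4 SP, grouped by sample title) was measured on Affymetrix Mouse Gene 1.1 ST arrays. The deposited values are log2 intensities that the authors made by RMA, which corrected for background, GC content and probe sequence, normalized the quantiles of the arrays and combined the probes of custom sets by median polish; the submitters' notes also name Affymetrix Expression Console and Partek. Values are relative within an array, no genome build is attached to them, and precision is limited by there being 4 arrays in a group. Rows were named through unversioned RefSeq identifiers of GRCm38.p6 genes (80.9% of rows). All rows were compared by limma (version 3.58.1, R 4.3.3; lmFit and eBayes, two-sided and without covariates), p-values were adjusted by Benjamini-Hochberg across the 24625 rows, and rows were called at an adjusted p of 0.05 and separately at 2-fold. Limma recovered most changes planted in data made for testing it. Tables and figures used Python 3.11.15. Alternatives were the methods' one-way analysis of variance, a robust prior with trend, a replicate block, array weights, centred arrays, another quantile normalization, dim rows left out, 1 row per symbol and each array left out. Leaving out PBS replicate 2 and SP replicate 3 together was chosen after the data were seen. Members, gene lists and tests were chosen with earlier results of these data known. Named genes were the members, 22 listed genes whatever they showed (F2rl3 and Septin5 had no row, and 1 is counted in its list but not reported here), the 3 largest rises and falls called at 2-fold per list, the 2 brightest genes per list of other cells, and the 5 rows most like Pf4 and Ppbp. Not all of these are printed. Mrc1, Marco, Alox12, Clec12b, Cxcl5, Cxcl3, Cxcl15, Tuba4a, Tpsb2, Mpo, Elane, Fga, Fgb, Fgg, Thpo and Cd40lg were named after their values were seen. Promoters were taken from RefSeq (GRCm38.p6).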

Additional observations from a re-analysis of the deposited data

Results flagged for a closer look

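In 7 of 124 groups of 4 arrays, over 62 genes, 1 array lay apart from the others by Dixon's ratio above its 95% critical value, where chance marks about 1 in 20 groups. No measured member was among them. SP replicate 3 was high for Gp1ba, at 6.16 log2 against 5.50 to 5.54 on the other SP arrays, and for Mpig6b, at 5.25 against 4.88 to 4.93, and was low for Vwf, at 8.30 against 9.79 to 10.09. PBS replicate 2 was high for Gp5, at 6.07 against 4.99 to 5.12, and low for Mmrn1, at 5.85 against 7.15 to 7.40, and for the macrophage gene Cd68, at 10.82 against 11.77 to 11.93. SP replicate 2 was low for the globin gene Hba-a2, at 6.86 against 7.61 to 7.76. PBS replicate 2 and SP replicate 3 thus held 3 each.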

How the results depend on the processing

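Ppbp kept its direction and its call under every alternative run. The number of members called was 2 and became 4 with array weights, 1 with dim rows left out and 1 to 3 with 1 array left out. At 2-fold it was 1 and became 3 with array weights, 2 with arrays centred, 2 after another quantile normalization, 1 to 2 with 1 array left out and 3 without PBS replicate 2 and SP replicate 3. With arrays centred, the log2 difference was 0.10 for Pf4, 0.0032 for Itga2b, -0.049 for Gp9, 0.51 for Treml1, 0.27 for Clec1b and 1.23 for Tubb1. Among other named genes it turned to 0.048 for Selplg, 0.037 for Cxcr2, 0.28 for Trem1, 0.10 for S100a8 and 0.053 for Hdc. After another quantile normalization it was 0.15 for Pf4, 0.058 for Itga2b, 0.28 for Clec1b, 1.29 for Tubb1 and -0.12 for Gata1. With array weights it was -1.01 for Gp1bb, 0.21 for Clec1b and 1.60 for Tubb1. With 1 array left out the range was -0.59 to 0.04 for Pf4, -0.40 to -0.29 for Gp9, -0.99 to -0.33 for Gp1bb, -0.12 to 0.14 for Clec1b and 0.72 to 1.34 for Tubb1. It was -0.13 to 0.47 for Vwf, -0.016 to 0.050 for Gata1, -0.051 to 0.31 for Fli1 and -0.21 to 0.12 for Trem1. Gp9 lost its call without PBS replicate 1, 2 or 3 or SP replicate 1 or 4 (limma adjusted p = 0.0594 to 0.0854). Without PBS replicate 2 and SP replicate 3 it was 0.050 for Pf4, -0.32 for Gp9, -1.09 for Gp1bb, 0.10 for Clec1b, 1.63 for Tubb1, 0.54 for Vwf and -0.28 for Trem1. Itga2b, Gp9 and Treml1 have no value with dim rows left out. The cause of these changes was not tested.

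Deviations of same-numbered arrays correlated at 0.02, 0.03, 0.35 and -0.27 across rows, against -0.36 to 0.28 for arrays of different numbers. These values cannot settle whether the replicate numbers pair the samples, which the labels do not say. With the replicate block, Selp (limma adjusted p = 0.0187), Nfe2 (0.012) and Thbs1 (0.0471) passed, and the alveolar macrophage gene Chil3 lost its call (0.0662). With it, 4324 rows were called at 2-fold, against 4341 without it, and among the members Tubb1, at 0.95, passed (limma adjusted p = 0.0159). Signal over background limits Gp9 and Treml1, whose values lie within those of silent genes. It also limits Itga2b, which exceeded their 95th percentile only narrowly on SP replicates 3 and 4.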
